A study of Mus musculus with 24 samples.

Results

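The genes described here encode the contractile machinery of striated muscle: the actin, troponin and myosin proteins of the sarcomere, its Z disc and M band framework, the calcium release apparatus, the acetylcholine receptor of the endplate, and factors that assemble or turn over these proteins. Members were chosen by symbol from a list of 51 genes. Of these, 49 were named on the array, among 18193 genes in all, and each was followed on its probe set with the highest mean over the 24 arrays; Klhl31 and Trim55 were not named on it. The samples were mandibles and maxillae of C57B6 mouse embryos at embryonic day 12.5, each cut into a distal and a proximal end. Knockout embryos came from crosses of Wnt1cre;Tgfbr2fl/+ with Tgfbr2fl/fl mice and were picked out by cleft palate and calvarial defect, so that the receptor gene Tgfbr2 was targeted by a Cre driven from Wnt1, which is active in neural crest cells. The controls were littermates, with no Tgfbr2 or Cre alleles stated for them here, and all groups shared the strain and the stage. The 8 groups of genotype, jaw and end had 3 arrays each, and nothing in the labels says that the 3 came from separate embryos, so the p-values below measure only the spread between arrays.

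Muscles of the face arise from head mesoderm, not from neural crest, while their tendons and connective tissue are made by neural crest cells. In these muscles, as in the trunk, regulators such as Myod1 and Myog switch on myoblast fusion and the sarcomere genes together. Thick myosin filaments slide along thin actin filaments when calcium, released through the ryanodine receptor, binds troponin and moves tropomyosin off the actin. Embryonic fibres use isoforms of these proteins, such as embryonic myosin heavy chain and cardiac actin, that adult limb muscle largely replaces. Wnt1cre is known to recombine neural crest cells and their descendants.

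The labels were checked first. The Tgfbr2 probe set was not lower in the knockout, with group means of 11.54 to 12.07 in controls and 11.75 to 12.38 in knockouts and an adjusted p of 0.112 for the mean difference of 0.34 ± 0.12 (limma, SE); where its probes lie against the deleted part is not stated, so it checks nothing about the genotype. Over all genes, 7 of the 24 arrays were closer to the other end of their jaw and genotype than to their own group: control maxilla distal 1 (correlation 0.689 with the other end, 0.365 with its own), control maxilla proximal 1 (0.692, 0.538), knockout mandible distal 1 (0.682, 0.325), knockout mandible proximal 1 (0.597, 0.435), knockout maxilla proximal 3 (0.378, 0.205), control maxilla distal 2 (0.644, 0.583) and knockout mandible distal 2 (0.614, 0.555). Counts without the first 4 of these arrays, and without all 7, a setting added after the correlations were seen, are given where they differ by over 1.5 times. Without all 7, the distal control maxilla and the distal knockout mandible keep 1 array each, which is assumed to vary like the other groups. Skeletal muscle was present: Myod1 reached 10.81 to 11.16 and Myog 11.86 to 12.22 in the proximal control mandible. Of 7 heart muscle markers, Nppa, Myl2 and Myl7 lay below the 30th percentile of the array in all 24 arrays and Myh6 in 23. Tnni3 (5.69 to 6.71) lay below it in 2 and Nkx2-5 (6.32 to 8.36) and Nppb (6.26 to 6.85) in none. Of 4 smooth muscle markers, the myosin Myh11 was below that percentile in 23 arrays and Cnn1 in 16, while Tagln (9.79 to 10.80) and Acta2 (8.53 to 13.42), both of which early skeletal muscle also expresses, were above it in all 24.

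Because the results turn on members that moved together, their upstream sequences are shown first. RefSeq start sites on GRCm38.p6 gave 250 bases upstream for 39 of the 49 members; Tnnt3, Tnni2, Neb, Actn3, Myom2, Tcap, Xirp1, Cacng1, Sln and Chrnd had no entry. Motifs were sought on both strands. The E box CAGCTG, a form bound by the Myod1 family, stood upstream of 19 of the 39 members (48.7%), against 14.7% of all 27025 genes with an entry. The CArG box, bound by serum response factor, stood upstream of 5 members (12.8%) against 1.62% of all genes, and the MEF2 site upstream of 4 (10.3%) against 3.42%. Any E box, CANNTG, which includes CAGCTG and CACCTG, was near 33 of 39 (84.6%) and 69.3% of all genes; CACCTG was near 13 (33.3%) and 19.4%. The MCAT letters CATTCC stood upstream of 10 members (25.6%) and 14.4% of all genes, and TATAAA upstream of 9 (23.1%) and 14.3%. With TATAAA limited to the last 50 bases on the gene's own strand, 4 members (10.3%) and 3.15% of all genes held it. These are matches of letters, not measured binding. The 6 sequences below stand for cardiac and skeletal actin, embryonic myosin, an assembly factor and a pair of endplate subunits; each runs 5′ to 3′ on the gene's strand and ends at the base before the start site. Capitals mark the CArG box in Actc1, the CAGCTG, CArG box and TATAAA in Acta1 (in that order), TATAAA in Myh3, the CAGCTG and then the MEF2 site in Klhl41, and CAGCTG in Chrna1 and Chrng.
Actc1 (chr2:114052876-114053125, minus strand): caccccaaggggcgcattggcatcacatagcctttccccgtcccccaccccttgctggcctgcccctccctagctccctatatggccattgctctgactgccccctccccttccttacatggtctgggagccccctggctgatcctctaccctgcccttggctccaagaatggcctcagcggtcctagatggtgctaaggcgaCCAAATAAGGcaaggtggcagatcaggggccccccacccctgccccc
Acta1 (chr8:123894776-123895025, minus strand): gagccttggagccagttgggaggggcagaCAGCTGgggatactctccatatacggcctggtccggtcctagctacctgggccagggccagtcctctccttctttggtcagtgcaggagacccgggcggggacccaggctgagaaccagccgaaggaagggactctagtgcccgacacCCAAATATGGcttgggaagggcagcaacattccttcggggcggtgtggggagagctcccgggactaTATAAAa
Myh3 (chr11:67078050-67078299, plus strand): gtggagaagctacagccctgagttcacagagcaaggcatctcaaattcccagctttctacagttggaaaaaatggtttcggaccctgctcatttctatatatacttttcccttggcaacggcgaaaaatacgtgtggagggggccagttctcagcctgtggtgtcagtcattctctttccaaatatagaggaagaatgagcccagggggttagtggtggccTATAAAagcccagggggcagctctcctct
Klhl41 (chr2:69669870-69670119, plus strand): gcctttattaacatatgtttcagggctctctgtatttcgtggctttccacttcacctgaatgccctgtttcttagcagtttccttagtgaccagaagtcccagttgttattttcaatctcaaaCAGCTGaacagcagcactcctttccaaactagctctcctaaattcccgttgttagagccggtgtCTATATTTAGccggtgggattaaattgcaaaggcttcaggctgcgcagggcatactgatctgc
Chrna1 (chr2:73580339-73580588, minus strand): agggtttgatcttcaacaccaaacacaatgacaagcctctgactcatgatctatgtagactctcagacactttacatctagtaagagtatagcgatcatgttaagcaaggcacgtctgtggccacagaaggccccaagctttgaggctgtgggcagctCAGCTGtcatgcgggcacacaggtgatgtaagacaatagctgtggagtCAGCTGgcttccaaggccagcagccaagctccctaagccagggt
Chrng (chr1:87205561-87205810, plus strand): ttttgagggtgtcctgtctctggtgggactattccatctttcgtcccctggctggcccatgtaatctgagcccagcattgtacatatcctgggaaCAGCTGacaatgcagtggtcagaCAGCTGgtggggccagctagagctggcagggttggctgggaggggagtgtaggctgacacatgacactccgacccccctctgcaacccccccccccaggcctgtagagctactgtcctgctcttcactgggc
The CArG box began 47 bases before the start in Actc1 and 73 bases before it in Acta1, and TATAAA began 29 bases before the start of Myh3 and 7 before that of Acta1. Chrna1 held CAGCTG at 92 and at 44 bases, and Chrng at 155 and at 132. Klhl41 held its MEF2 site at 63 and its CAGCTG at 127 bases before the start.

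The 49 members formed a block. All values are log2 robust multi-array average (RMA) signals, on which a difference of 1 is a 2-fold difference, and levels of different probe sets are not compared. The mean over the members of each gene's deviation from its own 24-array mean was 1.43, 1.49 and 1.11 in the proximal and -0.95, 0.75 and -1.55 in the distal control mandible. In control maxilla it was -1.12, -1.75 and -1.80 distally and -1.66, -1.36 and -1.42 proximally. Knockout mandible gave 2.08, 1.13 and 0.68 distally and 1.36, 1.48 and 1.56 proximally, and knockout maxilla 0.04, -0.79 and -1.85 and 1.62, 0.24 and -0.72. Proximal mandible was thus high in all 6 arrays and control maxilla low in all 6, while the distal mandible of both genotypes and both ends of the knockout maxilla were spread out. By group mean the order from the highest was proximal knockout mandible (1.47), proximal control mandible (1.34), distal knockout mandible (1.30), proximal knockout maxilla (0.38), distal control mandible (-0.58), distal knockout maxilla (-0.87), proximal control maxilla (-1.48) and distal control maxilla (-1.56), and the arrays of each pair of neighbours in that order overlapped. SDs of this mean over 3 arrays were 0.10 in the proximal knockout mandible, 0.16 and 0.38 in control maxilla (proximal, distal) and 1.19 in the distal control mandible. They were 0.715 in the distal knockout mandible, 0.206 in the proximal control mandible, and 1.178 and 0.949 in knockout maxilla (proximal, distal). In knockout maxilla, array 1 was the highest and array 3 the lowest at both ends; in the control mandible array 2 was the highest and array 3 the lowest at both ends. In whole-jaw pieces, fewer muscle cells and less muscle RNA per cell cannot be told apart.

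**Figure D1:**
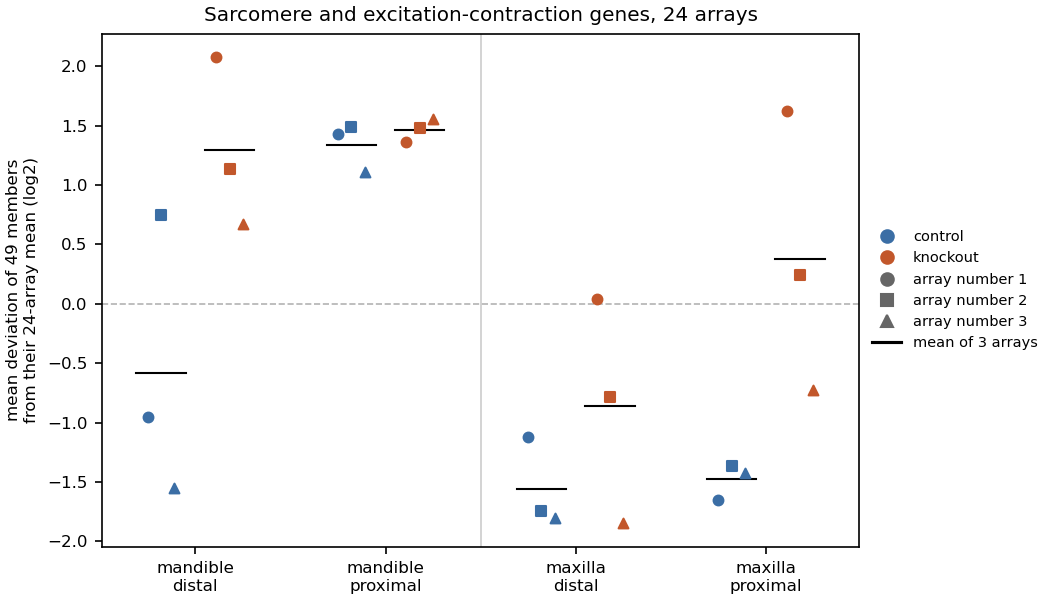
Mean deviation of the 49 members from their own 24-array means (log2, vertical axis) in each array, by jaw and end (horizontal axis). Blue points are control and orange points knockout arrays, the shape gives the array number and the bar the mean of 3; proximal mandible arrays lie between 1.11 and 1.56 and control maxilla arrays between -1.80 and -1.12.

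Member by member the likeness was close. The median correlation of a member with the mean of the others was 0.976 over the 24 arrays, 42 of 49 were over 0.9 against 1.15% of all genes tested, and the points share their libraries and their tissue pieces. The lowest were Tpm2 (-0.31), Ckm (0.63), Myl3 (0.71) and Chrnd (0.81). What differed was the range: the median over members from the lowest to the highest array was 6.0 for thin filament genes, 5.99 for myosin genes, 4.23 for the Z disc and M band framework, 3.82 for assembly and energy genes, 3.32 for excitation-contraction genes and 3.02 for the endplate. Every one of the 49 passed the filter of 3 arrays above the 30th percentile, and 25 were above it in all 24 arrays. Cacna1s was above it in 9 arrays, Cacng1 in 10 and Tnnt3 in 12. Myh8, Myom2, Klhl41, Smpx and Musk were above it in 13 arrays each, Ldb3 in 14, and Neb and Xirp1 in 15. The low groups of all these genes lie at or near the dim end of the array, where RMA differences are compressed. Outside the list, the 10 genes whose values ran closest to the members' mean were Myoz2, Srpk3, Tceal7, Arpp21, Prr32, Il17b, Ccdc141, Myod1, Myot and Hjv (correlation 0.986 to 0.991 over 24 arrays).

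**Figure D2:**
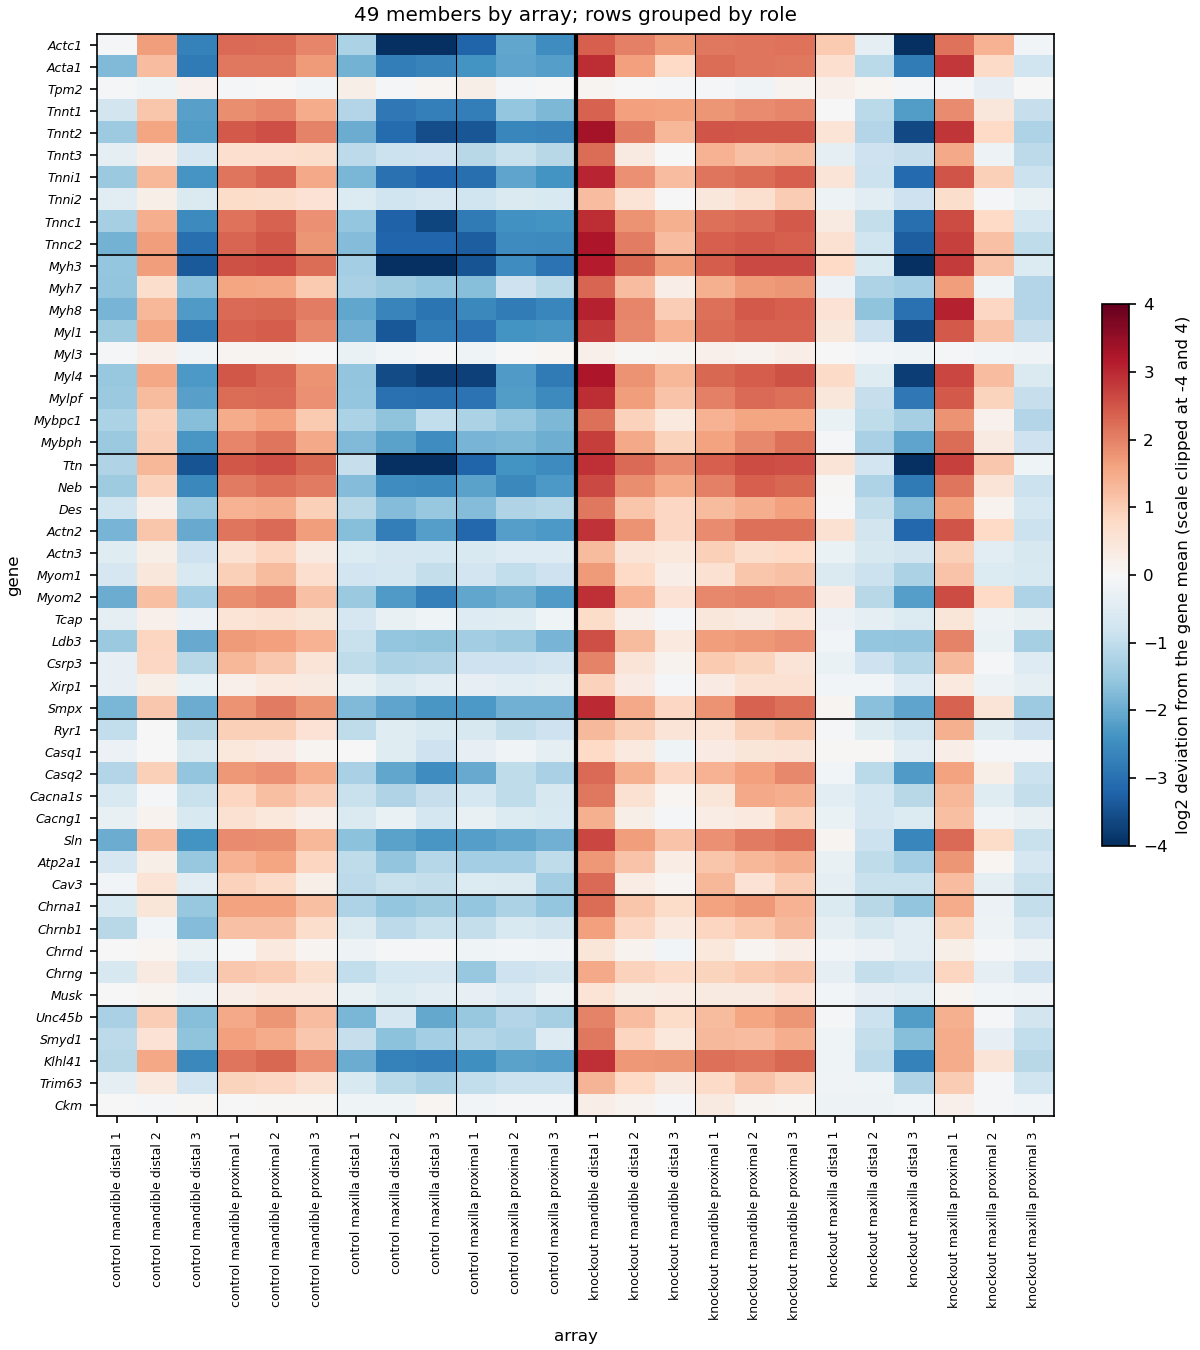
Log2 deviation of each of the 49 members (rows, grouped by role with black lines) from its own 24-array mean, in the 24 arrays (columns; control left of the thick line, knockout right). Most rows share 1 pattern with different amplitude, and Tpm2, Myl3 and Ckm are nearly white throughout.

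The comparison of mandible with maxilla in controls asks where in the jaws the muscle genes are expressed. At the proximal end, 42 of the 49 members were higher in the mandible (adjusted p under 0.05, limma with Benjamini-Hochberg adjustment over 14879 genes), where 7.94% of all genes tested were higher. The median difference was 2.84, against 0.02 over all genes, and in 47 of the 49 all 3 mandible arrays lay above all 3 maxilla arrays (24.4% of all genes). Embryonic myosin heavy chain Myh3 rose by 5.43 ± 1.18 (SE, adjusted p = 0.00584), the troponin T Tnnt2 by 5.23 ± 1.04 (SE, adjusted p = 0.0034), titin Ttn by 5.16 ± 1.18 (SE, adjusted p = 0.00777) and the embryonic light chain Myl4 by 5.16 ± 1.06 (SE, adjusted p = 0.00417). Called by class were 9 of 10 thin filament, 8 of 9 myosin, 12 of 12 framework, 5 of 8 excitation-contraction, 4 of 5 endplate and 4 of 5 assembly and energy genes. The 7 not called were Tpm2 (-0.13), Myl3 (0.10), Ckm (0.10), Chrnd (0.30), Casq1 (0.56), Cacng1 (0.90) and Cav3 (1.49). The smallest p was that of Musk, the endplate kinase, with 6.29, 6.40 and 6.40 in mandible and 5.68, 5.49 and 5.83 in maxilla and a rise of 0.70 ± 0.11 (SE, adjusted p = 0.000949). All 3 of these maxilla values lay below the 30th percentile of the array, where RMA differences are compressed. Other cell types differed between these arrays: 3 of 5 epithelium markers were lower in the mandible (mean level 8.89 to 10.23 against 10.60 to 11.22), of 6 neuron markers 2 were higher and 2 lower (10.48 to 11.29 against 10.03 to 10.47), 2 of 4 neural crest mesenchyme markers were higher, 1 of 3 cartilage markers was lower and 1 of 4 smooth muscle markers was higher. Their part in the result was not tested. By same-number correlations (0.122, 0.356 and 0.152) these arrays counted as paired, and with the number as a block 44 members were called. Over the processing settings 1207 to 2892 of all genes were called here in either direction, against 2151 in the main fit.

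At the distal end fewer members passed the test of the same contrast. The median was 0.85, 47 members had a positive difference, and 1 passed the test: Musk, at 6.01, 6.14 and 5.83 in mandible and 5.70, 5.48 and 5.59 in maxilla, rose by 0.40 ± 0.11 (SE, adjusted p = 0.0233), where 6.62% of all genes were called higher. Its maxilla values lay below the 30th percentile of the array. It was not called with only the 2 groups in the fit (0 members, where 3.87% of all genes were called higher), nor without control mandible distal 1 or 2 or control maxilla distal 2 or 3 (0 members, with 7.86% to 10.1% of all genes called in either direction), nor without the 7 arrays nearer to the other end (0 members, 5.34%). Without control mandible distal 3, 4 members were called (11.1%), and without knockout maxilla distal 3, 2 were (14.7%). The highest differences were those of Actc1 (2.94), Myl4 (2.21) and Tnnt2 (2.16), and the lowest those of Chrnb1 (-0.14), Tpm2 (-0.11) and Ryr1 (0.01). The distal control mandible was the group with the widest spread, a median member SD of 1.34 against 0.12 over all genes tested. Other tissue differed between these arrays. Lower in the mandible were 2 of 3 glia markers (mean level 8.45 to 9.03 against 9.58 to 10.76) and 2 of 6 neuron markers (8.79 to 9.56 against 9.49 to 10.47). So were 2 of 5 epithelium markers (10.70 to 11.11 against 10.41 to 11.45) and 1 of 3 cartilage markers (9.32 to 10.09 against 10.43 to 10.94). Higher were 1 of 4 neural crest mesenchyme markers (11.95 to 12.10 against 11.35 to 11.70) and 1 of 3 tendon markers (8.67 to 9.59 against 8.28 to 8.82). Their part in the result was not tested.

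Within the control mandible, the members were lower distally. All but Tpm2 had a negative difference, the median was -2.09 against -0.02 over all genes, and in 41 of 49 all 3 distal arrays lay below all 3 proximal arrays (18.7% of all genes). Passing the test were 7 members, where 2.34% of all genes were called lower: the endplate subunits Chrnb1 (-2.01 ± 0.38 (SE, adjusted p = 0.0112)), Chrna1 (-2.03 ± 0.52 (SE, adjusted p = 0.037)) and Chrng (-1.30 ± 0.35 (SE, adjusted p = 0.048)), nebulin Neb (-3.15 ± 0.77 (SE, adjusted p = 0.0327)), the calcium pump Atp2a1 (-1.93 ± 0.50 (SE, adjusted p = 0.0426)), the myosin-binding protein Mybph (-2.81 ± 0.75 (SE, adjusted p = 0.0468)) and desmin Des (-1.97 ± 0.53 (SE, adjusted p = 0.0471)). Chrnb1 was 6.14, 7.17 and 5.52 distally and 8.45, 8.44 and 7.97 proximally. The largest differences were those of Ttn (-3.57), Myh3 (-3.54) and Tnnc2 (-3.27), which did not pass, and the smallest in size those of Tpm2 (0.04), Ckm (-0.04) and Myl3 (-0.06). These arrays counted as paired by number (same-number correlations 0.295, 0.413 and 0.417). With the number as a fixed block 25 members were called, and with a random block of arrays sharing genotype and number, 30. The share of all genes called under each block is not given, so these counts cannot be read as particular to the members. Over the processing settings 439 to 1414 of all genes were called here in either direction, against 513 in the main fit. In the same distal arrays 3 of 3 measured glia markers and 3 of 6 neuron markers were lower (glia mean level 8.45 to 9.03 distally, 10.45 to 10.89 proximally; neuron 8.79 to 9.56 and 10.48 to 11.29), and 1 of 3 tendon markers and 1 of 4 neural crest mesenchyme markers were higher. Their part in the result was not tested.

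The count of 7 depended on single arrays. It was 0 without control mandible distal 3 or control mandible proximal 1 or 2 and 1 without control mandible distal 1 or proximal 3, where 0.383% to 0.807% of all genes were called in either direction against 3.45% with all arrays. It was 36 without control mandible distal 2, the array in which the members were high (4.83% of all genes). Arrays of other groups entered through the shared spread: the count was 13 without knockout mandible distal 1 (4.5% of all genes), 24 and 22 without knockout maxilla proximal 1 and 3 (4.42% and 5.77%), and 15 without the 7 arrays nearer to the other end (9.08%). It was 3 or 4 (2.67% to 3.7%) without control maxilla distal 2 or 3, any of control maxilla proximal 1 to 3, knockout mandible distal 2, any of knockout mandible proximal 1 to 3, knockout maxilla distal 2 or knockout maxilla proximal 2. In the control maxilla and in the knockout mandible no member was called between the ends, with medians of -0.06 and -0.19. There limma called 0 of all genes (0%) in both, and 103 and 72 genes (0.692% and 0.484%) had an unadjusted p under 0.05, none of them members. In both contrasts array 1 of each end was closer to the other end than to its own group. Arrays 1 of the control maxilla ends had a same-number correlation of -0.645. Without these 4 arrays, 104 of all genes were called between the ends of the control maxilla, and still no member. So the lack of calls over all genes in the control maxilla depended on those arrays, while the lack of member calls there did not change. In both contrasts no member was called in any fit that left out 1 array. Both contrasts still assume that the end labels hold. In control maxilla the highest differences were those of Actn2 (0.33), Mybpc1 (0.24) and Chrng (0.24), and the lowest those of Actc1 (-0.73), Casq2 (-0.51) and Ttn (-0.43). In knockout mandible they were those of Csrp3 (0.06), Ryr1 (0.05) and Tpm2 (0.03), and the lowest those of Tnnt3 (-0.41), Acta1 (-0.36) and Myh7 (-0.35).

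The comparison of knockout with control asks how jaw tissue differs when the receptor gene is targeted in neural crest. Over the 4 regions, 48 of 49 members had a positive mean difference, with a median of 1.04 against 0.01 for all genes tested. None passed the test, where 0.47% of all genes did; 44 of 49 had an unadjusted p under 0.05, against 23.2% of all genes. The adjusted p of Neb, the lowest, was 0.0517, and its mean difference 1.74 ± 0.39 (limma, SE). Myh3 (2.38), Ttn (2.25) and Myl4 (2.24) had the largest mean differences and Tpm2 (-0.04), Myl3 (0.06) and Ckm (0.07) the smallest. The mean over 4 regions joined unlike values, as the regions show. The 4 regional comparisons use separate control arrays, but share them with the comparisons between ends and jaws above.

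The count of 0 for the mean of the regions also rested on single arrays. Of the controls, leaving out mandible distal 2 made it 34 (3.48% of all genes were then called) and maxilla distal 1 made it 22 (2.24%). Of the knockouts, leaving out mandible distal 3 made it 33 (5.59%), maxilla distal 3 made it 28 (3.08%) and maxilla proximal 3 made it 40 (14.3%). These are arrays at the edge of their own group: the control arrays among them were the highest of their 3 for the members, and the knockout arrays the lowest.

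**Figure D3:**
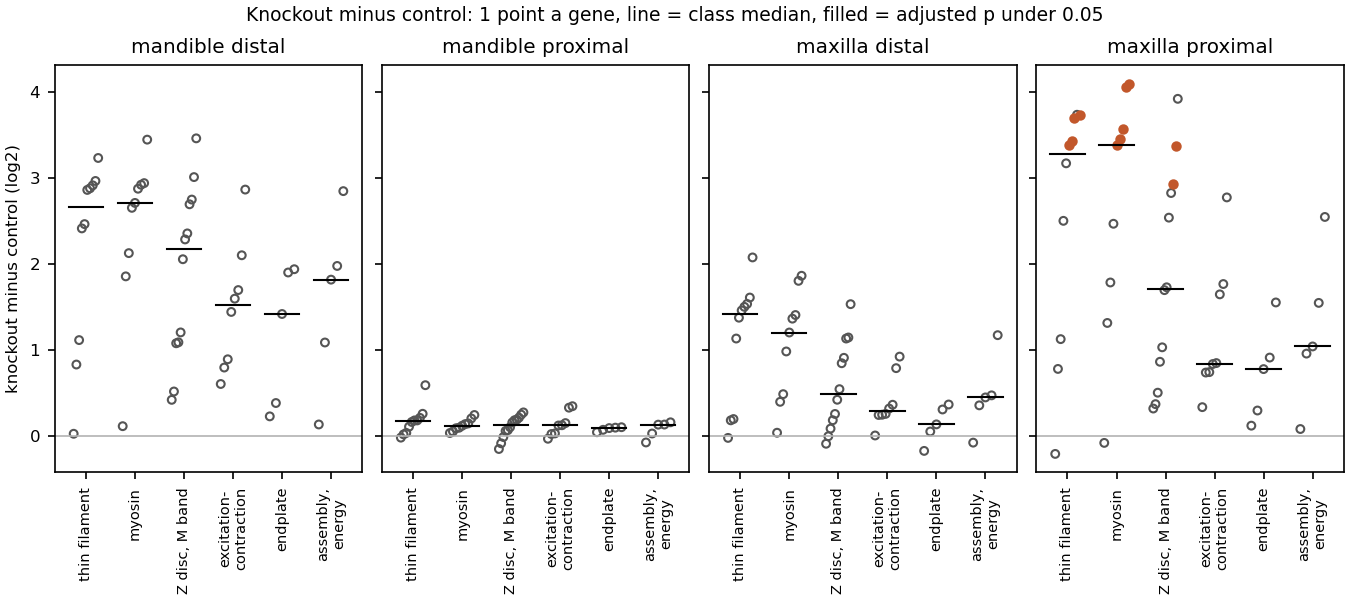
Knockout minus control difference (log2, vertical axis) of each of the 49 members in the 4 regions, by role (horizontal axis); the line is the class median and filled points have an adjusted p under 0.05. Points lie near 0 in the proximal mandible, between -0.15 and 0.60, and reach 4.10 in the proximal maxilla.

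In the distal mandible all 49 members had a positive difference, with a median of 1.98 against 0.01 for all genes tested. No member passed the test, where 0.134% of all genes did; 43 had an unadjusted p under 0.05 (12.6% of all genes), and in 14 all 3 knockout arrays lay above all 3 control arrays (7.66%). The nearest to the threshold was Chrnb1, 8.91, 8.10 and 7.65 in knockout against 6.14, 7.17 and 5.52 in control, a difference of 1.94 ± 0.38 (SE, adjusted p = 0.0519). Ttn (3.46), Myh3 (3.45) and Tnnc2 (3.23) had the largest differences, and Tpm2 (0.03), Myl3 (0.12) and Ckm (0.14) the smallest. Over all genes, knockout arrays 1 and 2 of this region were closer to the proximal end (0.682 and 0.614) than to their own group (0.325 and 0.555). Array 1 was also the highest of the 3 for the members. So these differences assume that the end labels of those arrays hold. Control array 2 averaged 0.75 over the members, above knockout array 3 at 0.68; without it 26 members were called (1.21% of all genes), and 2 were called without knockout mandible distal 3 (1.73%), 3 without knockout maxilla proximal 1 (0.269%) and 1 without knockout maxilla proximal 3 (0.309%). Among other cell types 1 of 3 glia markers rose, and the glia mean level was 9.62 to 10.55 in knockout and 8.45 to 9.03 in control; its part in the result was not tested. Of the other muscle genes Tcf21, a factor of branchial muscle precursors, was 7.91, 8.45 and 9.44 in knockout and 5.93, 6.66 and 4.87 in control, and rose by 2.78 ± 0.47 (SE, adjusted p = 0.014). With only these 2 groups in the fit, 0 of all genes were called, so that call did not hold there.

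Proximal mandible, where the members were highest in control, gave differences close to 0. The median was 0.12, 43 were positive, none was called (0.0538% of all genes were) and none had an unadjusted p under 0.05 (2.86% of all genes). With only these 2 groups in the fit, a setting added after the data were seen, the difference of Myh3 was 0.10 (95% interval -0.18 to 0.38), of Actc1 -0.01 (95% interval -0.25 to 0.23), of Ttn 0.07 (95% interval -0.16 to 0.30) and of Chrna1 0.10 (95% interval -0.24 to 0.45). In 3 members all knockout arrays lay above all control arrays (5.3% of all genes): Tnnt3, Ckm and Myl3. The fast troponin T Tnnt3 stood out in size, at 7.64, 7.42 and 7.50 in knockout and 6.91, 6.92 and 6.96 in control; its 2-group difference was 0.59 (95% interval 0.42 to 0.77), with an adjusted p of 0.152 in that fit (limma). The largest differences after it were those of Sln (0.35) and Cav3 (0.33), and the lowest those of Csrp3 (-0.15), Tcap (-0.08) and Smyd1 (-0.07).

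The difference of the knockout effect between the ends of the mandible was tested itself. Its median over members was 1.89, 47 were positive and 16 had an unadjusted p under 0.05 against 5.2% of all genes, but limma called none of the members and none of all genes (0%). The highest differences were those of Ttn (3.39), Myh3 (3.35) and Tnnc2 (3.02), and the lowest those of Myl3 (-0.02), Tpm2 (-0.01) and Ckm (0.0). So the larger distal difference did not pass its own test. It also assumes the end labels of knockout mandible distal 1 and 2 and proximal 1, which were closer to the other end than to their own group. In the maxilla the same term had a median of -1.18, with 2 positive, no member called (0.0403% of all genes) and none with an unadjusted p under 0.05 (10.1% of all genes). There the highest values were those of Tpm2 (0.19), Myl3 (0.12) and Casq1 (-0.01), and the lowest those of Ttn (-2.38), Myh8 (-2.37) and Myl4 (-2.25).

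Distal maxilla showed a median difference of 0.45, with 45 positive. None was called (0.0202% of all genes) and none had an unadjusted p under 0.05 (2.65%); in 1 member, Cav3, all knockout arrays lay above all control arrays (4.07%). Actc1 (2.08), Myh3 (1.87) and Myl4 (1.81) had the largest and Chrnd (-0.17), Myom1 (-0.09) and Ckm (-0.07) the lowest differences. Knockout array 3 was as low as the lowest control arrays: Myh3 was 10.73, 9.31 and 5.79 in knockout and 8.55, 5.90 and 5.77 in control. By the same correlations these arrays counted as paired, and no member was called with the block either.

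Proximal maxilla was the region of the 4 in which members were called between knockout and control. The median was 1.65 against -0.01 over all genes, less than the 1.98 of the distal mandible, 47 members were positive, and 11 rose, where 3.25% of all genes were called higher; in 33 all 3 knockout arrays lay above all 3 control arrays (10.8% of all genes). Thin filament genes among the 11 were the troponins Tnnt2 (3.70 ± 1.04 (SE, adjusted p = 0.0434)), Tnni1 (3.38 ± 0.93 (SE, adjusted p = 0.0401)), Tnnc1 (3.44 ± 0.94 (SE, adjusted p = 0.0394)) and Tnnc2 (3.74 ± 1.06 (SE, adjusted p = 0.0461)). Myosin genes were the heavy chains Myh3 (4.10 ± 1.18 (SE, adjusted p = 0.0485)) and Myh8 (3.57 ± 0.97 (SE, adjusted p = 0.0395)) and the light chains Myl1 (3.45 ± 0.99 (SE, adjusted p = 0.0472)), Myl4 (4.06 ± 1.06 (SE, adjusted p = 0.0338)) and Mylpf (3.39 ± 0.89 (SE, adjusted p = 0.034)). The framework gave Neb (2.93 ± 0.77 (SE, adjusted p = 0.0348)) and the Z disc actinin Actn2 (3.37 ± 0.91 (SE, adjusted p = 0.0388)). No member of the excitation-contraction, endplate or assembly classes passed; their medians were 0.85, 0.78 and 1.05. Ttn (3.92 ± 1.18 (SE, adjusted p = 0.0557)) had one of the largest differences and did not pass. The lowest differences were those of Tpm2 (-0.20), Myl3 (-0.07) and Ckm (0.09).

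These calls came from knockout arrays that differed widely among themselves. Myl4 was 11.97, 10.56 and 8.72 in knockout and 5.56, 7.03 and 6.47 in control, Mylpf 12.12, 10.56 and 8.73 and 6.71, 7.43 and 7.11, Neb 9.25, 7.61 and 6.24 and 4.97, 4.54 and 4.81, and Actn2 11.27, 9.53 and 7.89 and 5.61, 6.53 and 6.43. Array 1 reached the level of the proximal mandible, and array 3 lay nearer to the controls though still above them. The count of 11 was 0 with only these 2 groups in the fit, as it was over all genes (0%), 0 without the first 4 of the arrays nearer to the other end (0.101%) and 0 without any 1 of control maxilla proximal 1, 2 or 3 or knockout maxilla proximal 1 or 2 (0.128% to 0.692% of all genes called in either direction, against 5.77% with all arrays). It was 33 without knockout maxilla proximal 3 (22.6%), which is itself nearer to the other end, and 22 without all 7 such arrays (17.6%). Through the shared spread, with 4.13% to 6.17% of all genes called, it was 7, 22 and 19 without control mandible distal 1, 2 and 3, 3, 3 and 7 without control mandible proximal 1, 2 and 3, and 5 and 7 without control maxilla distal 2 and 3. Of the knockout arrays, leaving out mandible distal 2 gave 4, mandible proximal 2 and 3 gave 7 and 5, and maxilla distal 1, 2 and 3 gave 17, 6 and 18. Other tissue moved in the same arrays: 3 of 6 neuron markers and 1 of 3 glia markers rose and 3 of 5 epithelium markers fell. Neuron mean levels were 11.44 to 13.11 in knockout against 10.03 to 10.47 in control, glia 10.75 to 12.13 against 9.81 to 10.56, and epithelium 8.92 to 10.77 against 10.60 to 11.22. Their part in the result was not tested.

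Between the ends of the knockout maxilla, 47 members were lower distally, with a median of -1.22. None was called (3.26% of all genes were called lower), and 21 had an unadjusted p under 0.05 (27.2% of all genes). The highest differences were those of Tpm2 (0.21), Myl3 (0.02) and Ckm (-0.18), and the lowest those of Ttn (-2.82), Myh3 (-2.44) and Actc1 (-2.38). Without knockout maxilla proximal 3, 19 members were called, as were 21.8% of all genes in either direction against 6.16% with all arrays. Leaving out the 7 arrays nearer to the other end gave 10 (24.4%). In the same distal arrays 3 of 6 neuron markers and 1 of 3 glia markers were lower (neuron mean level 10.19 to 10.49 distally, 11.44 to 13.11 proximally; glia 10.15 to 10.62 and 10.75 to 12.13). Of the epithelium markers 3 of 5 were higher (11.44 to 11.55 and 8.92 to 10.77). Their part in the result was not tested. This contrast and the knockout contrast in the proximal maxilla share the knockout proximal arrays.

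The classes are taken in turn below, with the values of members picked by role.

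Thin filaments carry actin, tropomyosin and the 3 troponin subunits. Cardiac actin Actc1, the main actin of embryonic skeletal muscle, was 11.37, 13.14 and 8.74 in the distal and 13.73, 13.70 and 13.39 in the proximal control mandible, and 13.86, 13.48 and 13.16 and 13.57, 13.58 and 13.63 in the same ends of the knockout. In maxilla it was 10.18, 7.22 and 7.02 in the distal and 8.26, 9.38 and 8.97 in the proximal control maxilla, and 12.51, 11.08 and 7.08 and 13.63, 12.83 and 11.35 in the knockout. All proximal mandible arrays and all distal knockout mandible arrays lay between 13.16 and 13.86, and the distal knockout maxilla ran from 7.08 to 12.51. Tnni1, the slow troponin I, was 8.07, 10.88 and 7.18 in the distal and 11.70, 11.88 and 11.07 in the proximal control mandible, and 12.61, 11.38 and 10.79 and 11.69, 11.79 and 11.96 in the same ends of the knockout. Its maxilla values were 7.74, 6.58 and 6.37 in the distal and 6.54, 7.44 and 7.15 in the proximal control maxilla, and 10.06, 8.71 and 6.44 and 12.07, 10.51 and 8.71 in the knockout. The distal control mandible held 1 high array and a pair of low ones. Tnnt3, the fast troponin T, was 5.89, 6.51 and 5.58 in the distal and 6.91, 6.92 and 6.96 in the proximal control mandible, and 8.49, 6.62 and 6.23 and 7.64, 7.42 and 7.50 in the same ends of the knockout, and 5.21, 5.38 and 5.41 in the distal and 5.13, 5.35 and 5.15 in the proximal control maxilla, and 5.86, 5.43 and 5.31 and 7.77, 6.04 and 5.21 in the knockout. In control maxilla it lay below the 30th percentile of the array in all 6 arrays. Acta1, skeletal actin, ranged over 5.76 and Tnnt2 over 6.96 log2 units, while Tnni2, the fast troponin I, ranged over 2.05. In proximal mandible over maxilla, in controls, Tnnt1 rose by 3.79, the slow and cardiac troponin C Tnnc1 by 4.67 and the fast troponin C Tnnc2 by 4.98.

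**Figure D4:**
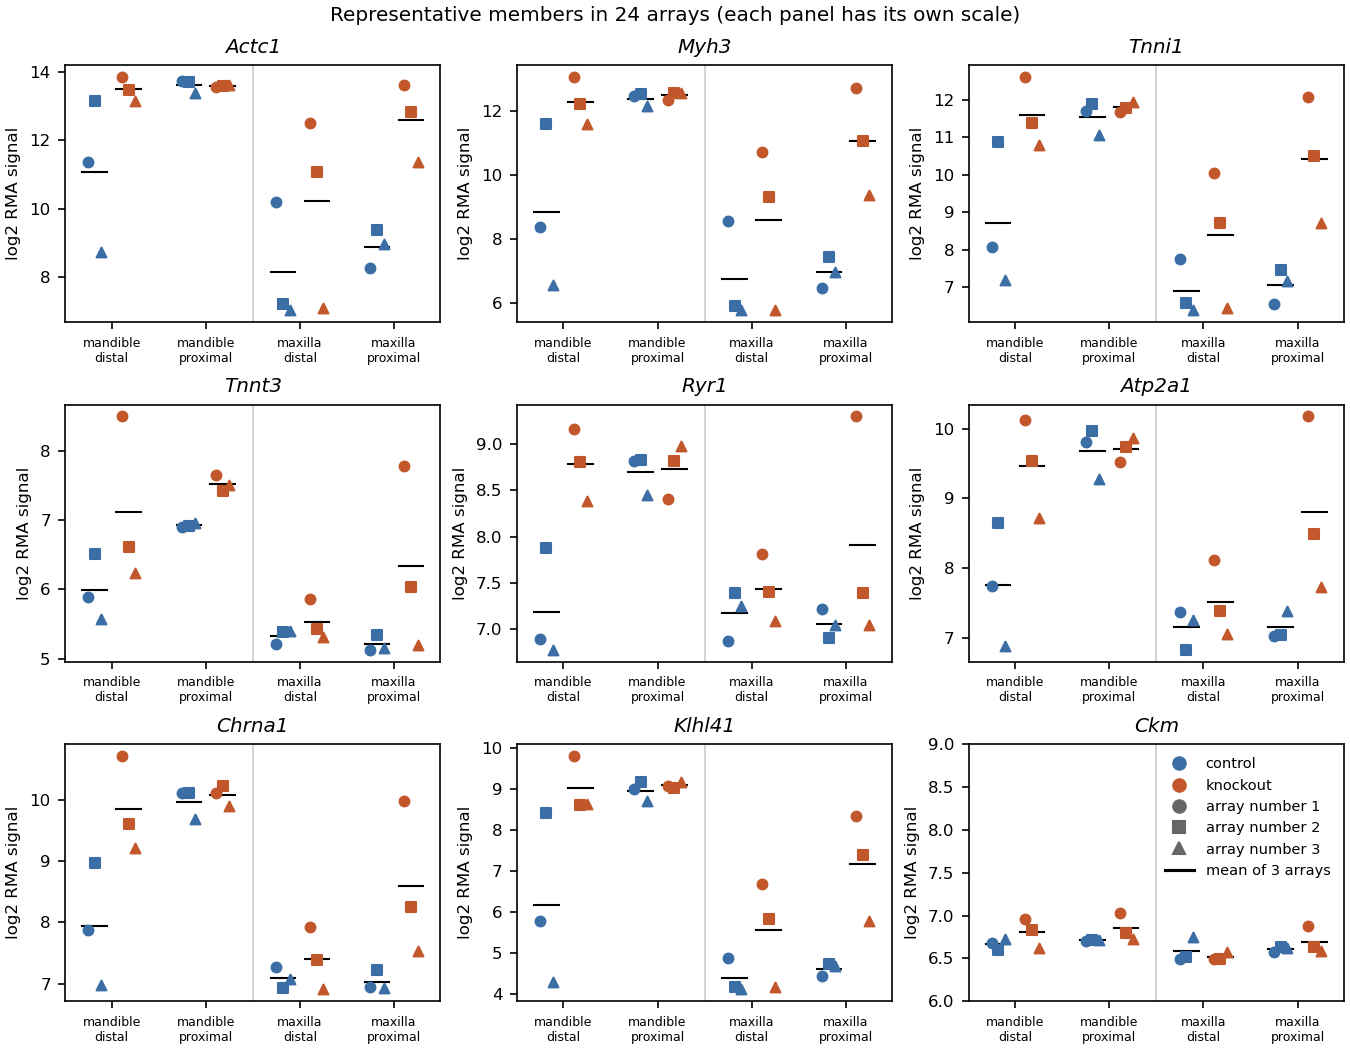
Log2 RMA signal (vertical axis, a separate scale in each panel) of 9 members in the 24 arrays, by jaw and end (horizontal axis). Blue is control, orange knockout, the shape is the array number and the bar the mean of 3; the high proximal mandible and the spread in the distal control mandible and the knockout maxilla recur in all panels but that of Ckm.

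Tpm2, the beta tropomyosin, was the exception within the thin filament, and its probe sets disagreed. The probe set with the highest mean stayed within 0.59 log2 units over 24 arrays. Of its 4 probe sets, 1449577_x_at had a correlation of 0.880 with the mean of the other members and was 1.18 higher in proximal control mandible than maxilla, 1419739_at had 0.863 and 0.91, and 1425028_a_at 0.286 and 0.16. By group mean, 1449577_x_at was 11.16 in the proximal control mandible and 9.97 in the proximal control maxilla. So the rule that keeps the brightest probe set decided what was seen of this gene.

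**Figure D5:**
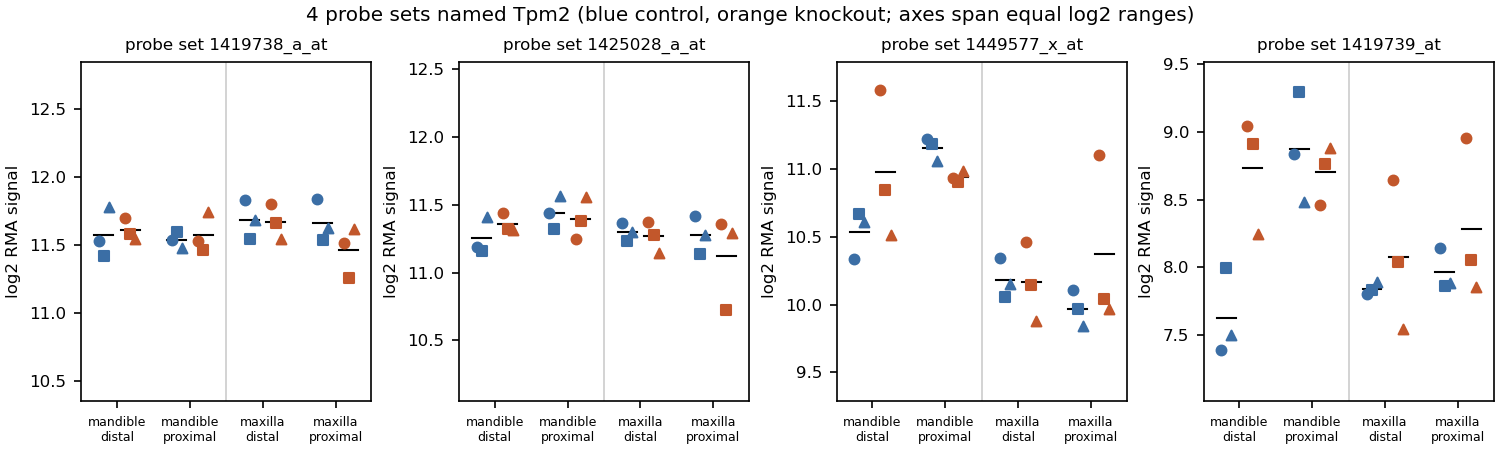
Log2 RMA signal (vertical axis) of the 4 probe sets named Tpm2 in the 24 arrays by jaw and end (horizontal axis); blue is control, orange knockout, the shape the array number and the bar the mean of 3. The left pair stays flat, and the right pair is higher in the proximal mandible than in control maxilla.

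With Tpm2, 15 of the 49 members had more than 1 probe set, and 33 probe sets were set aside; 10 of these had a correlation over 0.9 with the members' mean and 9 were above the 30th percentile in fewer than 3 arrays. For Smyd1, a methyltransferase that supports sarcomere assembly, 1441667_s_at was 4.94 higher in proximal control mandible than maxilla against 2.38 for the probe set used. Its other probe sets gave 1.21, 0.10, -0.09 and -0.06. For Tnni2 the second probe set gave 2.77 against 1.34. For Ttn, 1427446_s_at gave 4.49 against 5.16, and its remaining probe sets ran from -0.05 to 3.31. Smaller differences than in the probe set used were also seen for Ldb3 (0.30 and 0.91 against 3.16), Ryr1 (0.76 against 1.64) and Mybpc1 (1.34 and 1.455 against 2.91).

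Thick filaments are built of myosin heavy chains with their light chains and binding proteins. Embryonic Myh3 was 8.36, 11.60 and 6.56 in the distal and 12.48, 12.51 and 12.16 in the proximal control mandible, and 13.06, 12.21 and 11.59 and 12.33, 12.56 and 12.56 in the same ends of the knockout. In maxilla its values were 8.55, 5.90 and 5.77 in the distal and 6.46, 7.42 and 6.98 in the proximal control maxilla, and 10.73, 9.31 and 5.79 and 12.72, 11.07 and 9.36 in the knockout. They spanned 7.30 log2 units between the lowest and the highest array. Slow Myh7 was 6.18, 8.46 and 6.09 in the distal and 9.33, 9.30 and 8.80 in the proximal control mandible, and 10.09, 9.0 and 8.03 and 9.18, 9.46 and 9.54 in the same ends of the knockout. It was 6.46, 6.34 and 6.21 in the distal and 6.07, 6.93 and 6.70 in the proximal control maxilla, and 7.54, 6.54 and 6.40 and 9.44, 7.60 and 6.60 in the knockout. Its range was smaller, at 4.02. Mylpf, the regulatory light chain of fast fibres, was 8.19, 10.93 and 7.50 in the distal and 11.91, 11.91 and 11.48 in the proximal control mandible, and 12.62, 11.32 and 10.81 and 11.68, 11.94 and 11.87 in the same ends of the knockout, and 8.12, 6.66 and 6.63 in the distal and 6.71, 7.43 and 7.11 in the proximal control maxilla, and 10.11, 8.74 and 6.79 and 12.12, 10.56 and 8.73 in the knockout. Knockout maxilla arrays 1 and 2 stood above all control maxilla arrays at both ends for Mylpf and Myh3. Perinatal Myh8 was 9.11, 9.15 and 8.92 in the proximal control mandible and 4.27, 4.07 and 4.26 in the proximal control maxilla, where it lay below the 30th percentile of the array. Myl3, the ventricular and slow light chain, ranged over 0.52. In the same contrast the alkali light chain Myl1 rose by 4.79 and the binding proteins Mybpc1 and Mybph by 2.91 and 3.75.

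The framework class anchors and spaces the filaments. Titin, Ttn, which spans from Z disc to M band, was 7.82, 10.32 and 5.54 in the distal and 11.49, 11.59 and 11.31 in the proximal control mandible, and 11.93, 11.26 and 10.88 and 11.41, 11.61 and 11.59 in the same ends of the knockout. Maxilla gave 8.10, 4.91 and 4.59 in the distal and 5.80, 6.62 and 6.49 in the proximal control maxilla, and 9.53, 8.25 and 4.43 and 11.75, 10.08 and 8.83 in the knockout. It had the widest range of the 49 members, 7.49. Nebulin, Neb, which runs along the thin filament, was 5.67, 8.03 and 4.53 in the distal and 9.18, 9.31 and 9.17 in the proximal control mandible, and 9.73, 8.95 and 8.59 and 9.12, 9.48 and 9.38 in the same ends of the knockout. In the maxilla Neb was 5.37, 4.62 and 4.55 in the distal and 4.97, 4.54 and 4.81 in the proximal control maxilla, and 7.15, 5.86 and 4.28 and 9.25, 7.61 and 6.24 in the knockout. All 3 distal control mandible arrays were below all proximal ones. Desmin, Des, the intermediate filament that links Z discs, was 7.86, 8.84 and 7.12 in the distal and 10.03, 10.09 and 9.60 in the proximal control mandible, and 10.74, 9.77 and 9.48 and 9.90, 10.09 and 10.29 in the same ends of the knockout, and 7.54, 6.91 and 7.12 in the distal and 6.90, 7.45 and 7.50 in the proximal control maxilla, and 8.67, 7.69 and 6.87 and 10.32, 8.80 and 7.93 in the knockout. Tcap, which caps titin at the Z disc, and Xirp1 ranged over 1.42 and 1.5. Between proximal maxilla and mandible in controls, the M band proteins Myom1 and Myom2 rose by 1.82 and 3.76, the actinins Actn2 and Actn3 by 4.58 and 1.16, and the Z disc proteins Ldb3 and Csrp3 by 3.16 and 1.78; Smpx, a small muscle protein, rose by 3.93.

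Excitation-contraction genes carry the membrane signal to calcium release. Ryr1, the release channel, was 6.90, 7.88 and 6.78 in the distal and 8.82, 8.83 and 8.45 in the proximal control mandible, and 9.16, 8.81 and 8.38 and 8.41, 8.81 and 8.97 in the same ends of the knockout. Its maxilla values were 6.87, 7.40 and 7.25 in the distal and 7.22, 6.91 and 7.05 in the proximal control maxilla, and 7.81, 7.40 and 7.09 and 9.30, 7.39 and 7.04 in the knockout. Of the knockout maxilla arrays, only array 1 of the proximal end reached the level of the proximal mandible. Cacna1s, the voltage sensor, was 4.92, 5.47 and 4.62 in the distal and 6.38, 6.73 and 6.51 in the proximal control mandible, and 7.62, 6.12 and 5.61 and 6.0, 7.04 and 6.97 in the same ends of the knockout, and 4.63, 4.33 and 4.59 in the distal and 4.82, 4.52 and 4.88 in the proximal control maxilla, and 5.07, 4.82 and 4.42 and 6.86, 5.04 and 4.57 in the knockout. All 6 control maxilla arrays lay below the 30th percentile. Atp2a1, the fast calcium pump of the sarcoplasmic reticulum, was 7.74, 8.65 and 6.88 in the distal and 9.81, 9.97 and 9.28 in the proximal control mandible, and 10.12, 9.54 and 8.71 and 9.53, 9.74 and 9.87 in the same ends of the knockout, and 7.38, 6.83 and 7.25 in the distal and 7.03, 7.04 and 7.38 in the proximal control maxilla, and 8.12, 7.38 and 7.05 and 10.18, 8.49 and 7.73 in the knockout. Sarcolipin, Sln, which inhibits that pump, was 10.70, 10.68 and 10.15 in the proximal control mandible and 6.63, 6.74 and 6.90 in the proximal control maxilla, a rise of 3.75 ± 0.82 (SE, adjusted p = 0.00599). Calsequestrins bind calcium in the store: Casq2 rose by 3.12 ± 0.65 (SE, adjusted p = 0.00459) there, while Casq1 differed by 0.56 ± 0.22 (SE, adjusted p = 0.0963). The caveolin Cav3 and the channel subunit Cacng1 differed by 1.49 and 0.90 and did not pass.

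Endplate genes build and cluster the acetylcholine receptor under the motor nerve ending. Chrna1, the alpha subunit that binds acetylcholine, was 7.87, 8.98 and 6.98 in the distal and 10.11, 10.11 and 9.69 in the proximal control mandible, and 10.72, 9.60 and 9.22 and 10.11, 10.22 and 9.90 in the same ends of the knockout. In maxilla it was 7.27, 6.93 and 7.07 in the distal and 6.94, 7.22 and 6.93 in the proximal control maxilla, and 7.92, 7.39 and 6.91 and 9.99, 8.24 and 7.53 in the knockout. Chrng, the fetal gamma subunit, was 7.23, 8.21 and 7.07 in the distal and 8.94, 8.89 and 8.58 in the proximal control mandible, and 9.37, 8.78 and 8.62 and 8.76, 8.92 and 9.02 in the same ends of the knockout, and 6.90, 7.16 and 7.19 in the distal and 6.35, 7.05 and 7.12 in the proximal control maxilla, and 7.49, 6.91 and 7.01 and 8.73, 7.48 and 7.05 in the knockout. Both were lower in every distal than in every proximal control mandible array. In the proximal contrast of the jaws they rose by 2.94 ± 0.52 (SE, adjusted p = 0.00156) and 1.97 ± 0.35 (SE, adjusted p = 0.00175), whereas Chrnd differed by 0.30 ± 0.15 (SE, adjusted p = 0.185).

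In the assembly, turnover and energy class, Klhl41, which stabilises nebulin, was 5.77, 8.42 and 4.30 in the distal and 8.99, 9.16 and 8.70 in the proximal control mandible, and 9.80, 8.60 and 8.63 and 9.08, 9.02 and 9.16 in the same ends of the knockout. Its maxilla values were 4.88, 4.17 and 4.11 in the distal and 4.43, 4.74 and 4.68 in the proximal control maxilla, and 6.69, 5.83 and 4.17 and 8.34, 7.38 and 5.77 in the knockout. It rose by 4.34 ± 0.79 (SE, adjusted p = 0.00194) between proximal maxilla and mandible in controls, with the myosin chaperone Unc45b at 2.84, Smyd1 at 2.38 and the ubiquitin ligase Trim63 at 1.68. Ckm, the muscle creatine kinase of differentiated fibres, was 6.68, 6.60 and 6.72 in the distal and 6.70, 6.72 and 6.71 in the proximal control mandible, and 6.96, 6.83 and 6.63 and 7.03, 6.80 and 6.73 in the same ends of the knockout. It was 6.49, 6.52 and 6.75 in the distal and 6.58, 6.64 and 6.62 in the proximal control maxilla, and 6.49, 6.49 and 6.58 and 6.88, 6.63 and 6.58 in the knockout. The 24 values lay within 0.54 log2 units.

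Isoform groups followed the same regions with different amplitude. In the proximal contrast of the jaws, the embryonic or cardiac-type genes Actc1, Myh3, Tnnt2 and Myl4 had a median of 5.20 (4 of 4 called), the perinatal Myh8 4.86, the slow genes Myh7, Tnnt1, Tnni1, Tnnc1 and Myl3 a median of 3.79 (4 of 5 called) and the 8 fast genes a median of 2.13 (7 of 8 called). There 7.94% of all genes tested were called higher. In the proximal knockout maxilla the medians were 3.90, 3.57, 2.50 and 1.39, with 3 of 4, 1 of 1, 2 of 5 and 3 of 8 called, where 3.25% of all genes were called higher. None of these calls held with only the 2 groups of that region in the fit, and they also depended on single arrays, as given above. In the distal knockout mandible the medians were 2.92, 2.92, 2.47 and 1.41, with none called (0.134% of all genes were). Amplitudes of different probe sets depend on the probes and on how near the low group is to the dim end, and the order of these medians was not tested.

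Other genes of the muscle programme were taken from a list, of which 15 were analysed here. In the proximal contrast of the jaws 10 were higher in the mandible and 1 lower: Mymx, needed for myoblast fusion, rose by 5.42 ± 0.90 (SE, adjusted p = 0.00117), Myog by 4.58 ± 0.98 (SE, adjusted p = 0.00511), Myod1 by 4.09 ± 0.79 (SE, adjusted p = 0.00276) and Tcf21 by 3.44 ± 0.47 (SE, adjusted p = 0.000276), while Pax7, a marker of muscle precursors that neural crest also expresses, fell by 2.06. Between the ends of the control mandible 6 were lower distally, among them Myf5 (-3.32 ± 0.72 (SE, adjusted p = 0.0182)) and Cdh15 (-1.91 ± 0.41 (SE, adjusted p = 0.0167)). In the proximal knockout maxilla 2 were called, both higher: Mymx (3.53 ± 0.90 (SE, adjusted p = 0.0319)) and the muscle cadherin Cdh15 (1.40 ± 0.41 (SE, adjusted p = 0.0498)). Just short of the cut were rises of Myog (3.31), Myod1 (2.63) and Msc (2.31) and a fall of Pax7 (-1.79), with limma adjusted p of 0.0524 to 0.0543. With only the 2 groups of this region in the fit, no gene at all was called (0 of 14420), so neither call held there. Over the 4 regions only Cdh15 was called among the 15 (1.02 ± 0.20 (SE, adjusted p = 0.0347)), and in the proximal knockout mandible none was. Just short of the cut over the 4 regions were Mymx (1.965), Myog (1.931), Myod1 (1.616), Myf5 (1.48), Msc (1.315), Tcf21 (0.996) and Tbx1 (0.388), with limma adjusted p of 0.0521 to 0.0583. Of the 15, only Pax3 had a negative mean difference (-1.214, limma adjusted p = 0.214). Mymx, which is outside the members, was 10.04, 8.41 and 6.49 in the proximal knockout maxilla and 4.58, 5.11 and 4.67 in control. Myf6, a regulator of later differentiation, lay between 5.12 and 6.27 in all 24 arrays.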

How the data were processed

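The deposited values are log2 signals of 45101 probe sets on 24 one-colour arrays, which the authors normalized by RMA, per the submitters' processing notes; no version is stated. Array medians ran from 7.26 to 7.38. Gene names came from GEO's platform annotation: 34945 probe sets had 1 symbol, 932 several and 9160 none, and 64 were controls. Per gene the probe set with the highest mean was kept. The 14879 genes above each array's 30th percentile (5.85 to 5.93) in at least 3 arrays were tested with limma 3.58.1 in R 4.3.3, 1 fit over the 8 groups with 16 residual degrees of freedom, two-sided, Benjamini-Hochberg adjusted over all genes tested, called at adjusted p under 0.05; the script was tested on simulated data. Only 3 arrays a group limit the precision. Members and lists were chosen with earlier results of these data known. Members were named by role, by largest and smallest difference and by call. The probe sets of Tpm2, Smyd1, Ldb3, Ryr1 and Mybpc1 and the Mymx and Tcf21 values were picked after they were seen.

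Whether array numbers pair arrays was checked by correlating same-number deviations from group means over all genes. All 3 correlations were over 0.1 for the ends of the control mandible, for the jaws' proximal controls (0.122, 0.356 and 0.152) and for knockout against control in distal maxilla (0.188, 0.215 and 0.115). These counted as paired, and the other comparisons of 2 groups did not. Single correlations in those others ran from -0.645 to 0.535, so values just over 0.1 do not show pairing. The pairing comes from these correlations, not from the labels.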

Additional observations from a re-analysis of the deposited data

How the results depend on the processing

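With 3 arrays a group and groups that differ in spread, counts of calls moved more than directions did. No member called in a comparison changed sign under any alternative run. Of the 42 members called between the proximal jaws, 34 were tested and called under every processing alternative and 32 under every alternative including the loss of any 1 array; of the 7 of the control mandible 3 and 0 were, and of the 11 of the proximal maxilla 0 and 0. Over the 24 fits that leave out 1 array, the member count ran from 0 to 40 for the mean of the regions, 0 to 26 for the distal mandible, 0 to 33 for the proximal maxilla, 0 to 36 between the ends of the control mandible, 0 to 19 between those of the knockout maxilla, and 0 to 4 between the distal jaws; the median difference between the ends of the control mandible ran from -2.87 (without distal 2) to -1.57 (without distal 3). For the mean of the regions it was 18 with a filter at the 50th percentile, 9 with cyclic loess, 1 with the mean of all probe sets of a gene, 12 with a trended robust prior and 35 with the array number as a fixed replicate block. In the distal mandible the filter, the prior and the fixed block each gave 1. Proximal maxilla gave 23 with the fixed and 17 with the random replicate block, 0 without the first 4 arrays nearer to the other end, 22 without all 7 and 0 with only the 2 groups compared; these last 2 settings were added after the data were seen. Between the ends of the control mandible the count was 4 with no filter, 25 with the fixed and 30 with the random block, and 15 without the 7 arrays; without these, 10 were called between the ends of the knockout maxilla and 0 between the distal jaws. The distal jaws gave 0 with the stricter filter, 0 with only 2 groups and 2 with the fixed block. The median difference between the proximal jaws was 1.92 with the mean of all probe sets. Apart from the control mandible, the block ended or made no call in the comparisons that counted as paired, save for 44 in place of 42 between the proximal jaws. Where the numbers do not pair the arrays, the block counts say nothing of a weaker or stronger effect. The cause of these shifts was not tested. The count over all genes moved too, from 0 to 3366 for the proximal maxilla over all settings, against 859, and from 6 to 2132 for the mean of the regions, against 70. With the fixed block it was 1102 for the mean of the regions, and 66 in the distal mandible against 20. Between the ends of the control mandible it was 439 with no filter, against 513. For most other settings above it is not given, so those member counts cannot be read as particular to the members.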
